A study of Rattus norvegicus with 23 samples.

Results

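The comparison described here asked how the liver response of rats to acetaminophen (APAP) differed from that to diclofenac (DCLF). It was the APAP effect, APAP at 1000 mg/kg minus corn oil at 2 ml/kg, less the DCLF effect, DCLF at 10 mg/kg minus water at 10 ml/kg. The 11 arrays whose labels named these 4 groups in 1 in-life study were used, of 23 in the series: 3 APAP, 3 corn oil, 3 DCLF and 2 water. All animals were male Sprague Dawley rats, usually 6 to 8 weeks old at the start, and each array held RNA of the left lateral liver lobe of 1 rat. By the study's methods the rats were gavaged for 5 days and necropsied 24 h after the last dose, fasted overnight. The drugs differed in dose and in vehicle as well as in structure, and these cannot be told apart in the difference.

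APAP is cleared mainly by coupling to glucuronate and sulfate, and a reactive quinone imine made from it by cytochrome P450 enzymes is trapped by glutathione. DCLF is a cyclooxygenase inhibitor that is oxidised by cytochrome P450 enzymes and glucuronidated to a reactive acyl glucuronide. Electrophiles release the transcription factor NRF2 from its partner KEAP1, and NRF2 then raises genes for glutathione synthesis, quinone reduction and conjugate export. ATF4, the effector of the integrated stress response, raises genes for amino acid supply such as those of serine and asparagine synthesis.

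The deposited values were log2 RMA values (robust multichip averages) and ran from 4.65 to 15.99, with array medians between 8.95 and 9.02. Within a group, arrays correlated at 0.991 to 0.995. On the first principal component (24.4% of the variance) the APAP arrays lay at 14.6 to 26.9 and the other 8 arrays at -11.1 to -3.69. The 16 hepatocyte markers measured had mean levels of 12.33 to 15.96, the upper end of the scale, as the liver label requires. Their average was 14.36 to 14.41 in the APAP arrays and 14.48 to 14.52 in the others. These averages include Apoa1, with an APAP effect of -1.04, while the median effect over the 16 was -0.04 for APAP and -0.01 for DCLF. A gene was called when its adjusted p from limma was under 0.05 and its change over 1.5-fold.

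APAP raised a set of detoxification, transport and serine synthesis genes relative to DCLF, and no gene was called in the opposite direction in the fit described here. Of 31042 probe sets tested, 22 were called in the difference, all of them higher, which is 0.0709% of those tested in either direction and 0.0709% higher. The count in the lower direction was 0 (0.0%) by limma. With quantile normalization of the same values 21 were higher and 3 lower, and with array weights 28 and 3. At an unadjusted p under 0.05 there were 3852 probe sets, 2540 higher and 1312 lower. The called differences ran from 0.69 to 4.77 on the log2 scale, or 1.61- to 27.4-fold, with a median of 1.43. With 1 probe set for each of 14217 genes, 19 genes were called (0.134%).

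Leaving out 1 array at a time gave between 8 and 27 called probe sets. The count fell to 9 without APAP replicate 1, 12 without corn oil replicate 2, 13 without DCLF replicate 3 and 8 without water replicate 2. Lower calls appeared only in some of these fits: 6 without APAP replicate 3, 6 without water replicate 1, 4 without corn oil replicate 3, and 1 each without DCLF replicate 1 or 3. Of the 19 genes, 7 stayed called without each array in turn, namely Gsta3, Abcc3, Phgdh, Akr7a3, Nqo1, Abcc4 and Cryl1. The other 12 lost their call without at least 1 array.

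**Figure D1:**
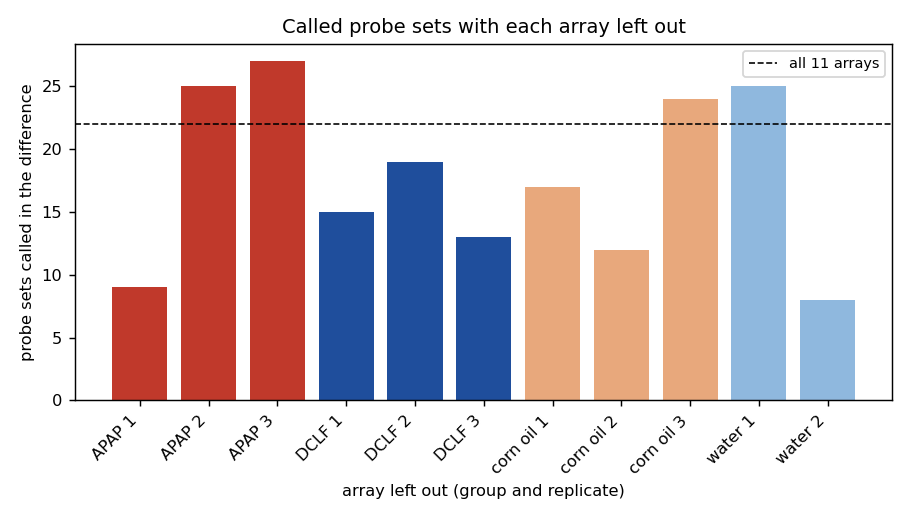
Bars give the number of probe sets called in the difference when 1 array was left out, with the array's group and replicate under each bar and the dashed line at 22 for all 11 arrays. The counts run from 8 without water replicate 2 to 27 without APAP replicate 3.

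The difference has 2 components that share no arrays with each other, and both are part of the difference by construction. APAP against corn oil had 123 called probe sets (0.396%), 79 higher (0.254%) and 44 lower (0.142%), or 78 of 14217 genes (0.549%). This count fell to 72 without corn oil replicate 1 and to 77 without corn oil replicate 2. DCLF against water had 0 called probe sets (0.0%), with a smallest adjusted p of 0.122 in limma, against 3805 at an unadjusted p under 0.05, of which 1304 were higher and 2501 lower. Without moderation of the variances it had 48 at an unadjusted p under 0.01 and over 1.5-fold. Corn oil against water also had 0 (0.0%), with a smallest adjusted p of 0.251 and 1791 at an unadjusted p under 0.05, and 10 without moderation at an unadjusted p under 0.01.

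In all 22 called probe sets the mean of the APAP arrays was above that of corn oil, and in 16 the DCLF mean was below that of water. The corn oil mean was also below that of water in 16 of the 22, with corn oil minus water between -0.43 and 0.19. The DCLF effect lay between -0.42 and 0.25 in these probe sets, with a median of -0.21, whereas the median APAP effect was 1.22. The APAP effect made up over 75% of the difference in 19 of the 22, with a median of 88.3%. In 20 of the 22 all 3 APAP arrays lay above the other 8 arrays, as did 2.72% of all probe sets. Since these arrays also chose the 22, nothing is read from that count. Over all 31042 probe sets the APAP and DCLF effects had a Pearson r of 0.0354 and a Spearman rho of 0.00322, with probe sets sharing arrays and therefore not independent.

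**Figure D2:**
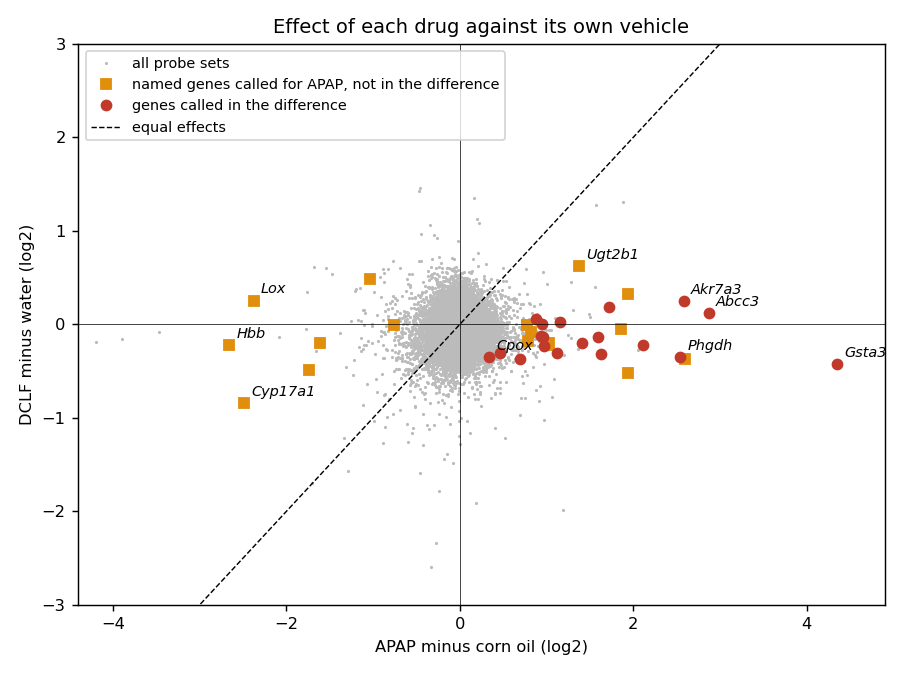
Each grey point is 1 of 31042 probe sets, with the log2 APAP effect on the horizontal and the log2 DCLF effect on the vertical axis, the dashed line marking equal effects. The 19 called genes (red) spread along the horizontal axis as far as Gsta3 at 4.35 and stay between -0.42 and 0.25 on the vertical axis.

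Glutathione conjugation held the gene with the largest called difference. Gsta3 (probe set 1371089_at), an alpha class glutathione S-transferase, had values of 12.32, 12.01 and 12.30 with APAP and 8.06, 7.45 and 8.07 with corn oil. Its values were 8.64, 7.44 and 7.43 with DCLF and 8.37 and 8.15 with water. The APAP arrays stood more than 3 log2 units above every other array, and the DCLF arrays overlapped both vehicles. The difference was 4.77 ± 0.43 (standard error, adjusted p = 0.00133), from an APAP effect of 4.35 and a DCLF effect of -0.42. Glutathione S-transferases are near-identical in parts, and a probe set named for 1 may also bind another.

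Mgst2, a membrane-bound glutathione transferase, had values of 12.82, 12.83 and 12.80 with APAP and 12.06, 11.83 and 11.64 with corn oil. With DCLF its values were 11.68, 11.66 and 11.90, below both water values of 11.95 and 12.003. The difference was 1.20 ± 0.15 (adjusted p = 0.0184). Gclc encodes the catalytic subunit of glutamate-cysteine ligase, which limits the rate of glutathione synthesis. Its difference was 1.09 ± 0.16 (adjusted p = 0.0451), with an APAP effect of 0.96 and a DCLF effect of -0.14. The Gclc call was lost without 9 of the 11 arrays, and also under median centring, quantile normalization, array weights and 1 value per gene. A second Gclc probe set gave 0.71 (adjusted p = 0.249) and was not called. The regulatory subunit Gclm had a difference of 1.24 (95% interval 0.81 to 1.68, adjusted p = 0.0596), and glutathione reductase Gsr one of 0.90 (adjusted p = 0.0706), both past the fold but not the adjusted p. Of 22 glutathione S-transferases measured, 2 were called higher in the difference, and of 19 genes of glutathione synthesis and recycling, 1. Over all genes the called share was 0.134%.

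NRF2 target genes with a role in quinone and aldehyde reduction were called as well. Nqo1 (1387599_a_at), a quinone reductase that is a standard readout of NRF2, had values of 13.39, 13.52 and 13.27 with APAP, and no array of another group exceeded 12.01. Its difference was 1.74 ± 0.16 (adjusted p = 0.00133). Akr7a3 (1368121_at), the aflatoxin aldehyde reductase, had APAP values of 14.38, 14.30 and 14.47 and corn oil values of 11.80, 11.79 and 11.82. The DCLF values were 12.06, 12.05 and 11.47, and the water values 11.71 and 11.52. Both genes had APAP arrays clear of all others, and their DCLF effects were small against that, at -0.14 for Nqo1 and 0.25 for Akr7a3. The Akr7a3 difference was 2.34 ± 0.20 (adjusted p = 0.00133).

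Other genes of the NRF2 system varied. Pir, an iron-binding nuclear protein, had a difference of 2.45 (adjusted p = 0.0660) and was called for APAP but not in the difference. Its vehicle and DCLF values were scattered, from 9.09 to 10.37, while APAP lay at 11.32 to 11.64. Txnrd1, thioredoxin reductase, had a difference of 0.97 (adjusted p = 0.134), and Srxn1, sulfiredoxin, 0.26 (95% interval -0.18 to 0.70). For Nfe2l2, the gene of NRF2 itself, the difference was -0.03 (95% interval -0.43 to 0.38), and for Keap1 it was 0.49 (adjusted p = 0.230). Hmox1, haem oxygenase, had a difference of 0.71 with an interval of -0.12 to 1.54. Slc7a11, the cystine importer, had one of -0.17 with an interval of -0.56 to 0.23.

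The windows from 250 bases before to 50 bases after the start of transcription (RefSeq, build GRCr8) were read for the core of the antioxidant response element, TGACNNNGC, where N is any base, on both strands. Of the 19 called genes 15 were matched by gene ID, and 3 of these windows held the core, against 4038 of 33469 windows in all (12.1%). Gsta3, Phgdh and Ugdh were the 3, and their windows are shown with the match in capitals, a match on the opposite strand reading GCNNNGTCA. Nqo1 is shown as a called NRF2 target whose window held none. The ATF4 response core TGATGNAA was in 0 of the 15 windows and in 3.98% of all windows, and the 2 cores did not share a match in any window shown. Matches are letters in a short window and say nothing of a factor's binding.
Gsta3, chr9:31154739-31155038, plus strand: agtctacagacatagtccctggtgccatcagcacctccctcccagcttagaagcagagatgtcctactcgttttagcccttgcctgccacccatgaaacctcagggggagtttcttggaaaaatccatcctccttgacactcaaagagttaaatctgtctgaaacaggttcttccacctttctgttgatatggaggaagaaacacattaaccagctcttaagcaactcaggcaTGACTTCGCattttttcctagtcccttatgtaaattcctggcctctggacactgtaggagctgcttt
Phgdh, chr2:188624740-188625039, minus strand: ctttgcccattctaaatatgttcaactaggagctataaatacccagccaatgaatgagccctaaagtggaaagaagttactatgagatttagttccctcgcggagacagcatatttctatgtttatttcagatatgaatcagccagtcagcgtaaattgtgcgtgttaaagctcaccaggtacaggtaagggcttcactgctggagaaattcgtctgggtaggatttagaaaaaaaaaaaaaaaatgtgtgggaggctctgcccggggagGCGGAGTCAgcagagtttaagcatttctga
Ugdh, chr14:43202268-43202567, plus strand: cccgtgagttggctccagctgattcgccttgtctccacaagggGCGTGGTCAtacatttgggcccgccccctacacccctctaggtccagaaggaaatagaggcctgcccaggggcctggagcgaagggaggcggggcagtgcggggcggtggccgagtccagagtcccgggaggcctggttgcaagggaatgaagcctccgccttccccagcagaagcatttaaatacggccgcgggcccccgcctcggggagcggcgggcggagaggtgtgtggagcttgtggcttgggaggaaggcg
Nqo1, chr19:52220218-52220517, minus strand: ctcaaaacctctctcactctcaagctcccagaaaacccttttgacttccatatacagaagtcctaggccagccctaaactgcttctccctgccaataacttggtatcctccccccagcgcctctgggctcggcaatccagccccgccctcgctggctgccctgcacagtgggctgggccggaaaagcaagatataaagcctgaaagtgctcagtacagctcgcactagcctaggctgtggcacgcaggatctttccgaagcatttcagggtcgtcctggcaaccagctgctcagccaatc

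In the glucuronate pathway Ugdh was called for its supply and Cryl1 for its breakdown. Ugdh (1367938_at), which makes the UDP-glucuronate that glucuronosyltransferases use, had APAP values of 13.58, 13.69 and 13.29 and corn oil values of 12.39, 12.34 and 12.49. With DCLF it had 12.003, 12.41 and 12.12, and with water 12.37 and 12.60. The APAP values were the 3 highest, and the difference was 1.42 ± 0.19 (adjusted p = 0.0206). Cryl1, an L-gulonate dehydrogenase that acts where glucuronate is broken down, had a difference of 1.53 ± 0.15 (adjusted p = 0.00269), with APAP at 12.30 to 12.46 and all other arrays at 10.52 to 10.96. Entpd5, an endoplasmic reticulum nucleotidase that removes UDP, had a difference of 0.82 ± 0.10 (adjusted p = 0.0134). Both further Entpd5 probe sets gave 0.83 and 0.82 and were not called.

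The transferases themselves were less clear. Ugt2b1 had a difference of 0.75 with an interval of -0.03 to 1.54, since its DCLF effect of 0.62 ran the same way as its APAP effect of 1.37. Its water values were 10.41 and 11.10 and its DCLF values 11.77, 10.78 and 11.58, so those 2 groups overlapped. Corn oil also stood above water, by 0.92, without being called. Ugt2b7 had a difference of 0.67 (interval -0.03 to 1.38), with APAP replicate 3 at 9.29 and the other APAP arrays at 8.42 and 8.16. Of 10 genes of this list measured, 1 was called in the difference, against 0.134% of all genes. The list median of 0.53 stood beside 0.05 over all genes.

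Basolateral export pumps rose with APAP relative to DCLF and the canalicular ones did not pass the test. Abcc3 (1369698_at), which carries glucuronides from the hepatocyte into blood, had APAP values of 11.69, 11.66 and 11.60 and corn oil values of 8.60, 8.91 and 8.82. DCLF gave 8.63, 8.77 and 9.18 and water 8.77 and 8.72. No overlap was seen between APAP and any other group, and the difference of 2.75 ± 0.19 had the smallest adjusted p of all, 0.000436. Abcc4 (1379402_at), another basolateral pump of organic anions, had APAP values of 9.995, 9.86 and 9.79 and a difference of 1.95 ± 0.20 (adjusted p = 0.00333). Its next highest array was water replicate 2 at 8.81. Abcc2, the canalicular conjugate pump, had a difference of 0.06 (interval -0.29 to 0.42), and Abcg2 one of -0.03 (interval -0.49 to 0.43).

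Slc17a3, an organic anion transporter, had a difference of 1.62 ± 0.22 (adjusted p = 0.0266), with APAP at 12.55 to 13.05 and every other array at or below 11.60. Of 22 hepatic drug and bile acid transporters measured, Abcc3 and Abcc4 were called in the difference, against 0.134% of all genes. The list median was 0.01. Slc35e3, a member of the nucleotide sugar transporter family, had a difference of 0.95 ± 0.14 (adjusted p = 0.0362) and a DCLF effect near 0. Its call was lost without 9 of the 11 arrays and under quantile normalization.

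The first steps of serine synthesis formed a further group. Phgdh (1367811_at), 3-phosphoglycerate dehydrogenase, had APAP values of 11.99, 11.37 and 11.68 and corn oil values of 9.22, 8.90 and 9.30. DCLF gave 8.65, 9.13 and 8.53 and water 8.85 and 9.39. Only the APAP arrays were above 10, and the difference was 2.89 ± 0.30 (adjusted p = 0.00333). Psat1 (1372665_at), the aminotransferase of the next step, had a difference of 2.33 ± 0.28 (adjusted p = 0.0125), with APAP at 11.01 to 11.21 and the other arrays at 8.55 to 9.36. The Psat1 call was lost without APAP replicate 1 and without water replicate 2.

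Asns, asparagine synthetase and a classical ATF4 target, had a difference of 2.97 ± 0.50, larger than that of Phgdh, but an adjusted p of 0.0709. APAP gave 11.60, 10.93 and 11.74, corn oil 8.59, 8.87 and 9.01, and DCLF 8.37, 8.46 and 8.12. The 2 water arrays were far apart, at 7.89 and 9.48. The difference of Asns was 3.76 and called without water replicate 1, and 2.17 and not called without water replicate 2. Of 24 measured genes of serine synthesis and the ATF4 response, 2 were called higher and none lower, against 0.134% of all genes. In this list 18 lay above 0, against 58.9% of all genes, and the median was 0.42.

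**Figure D3:**
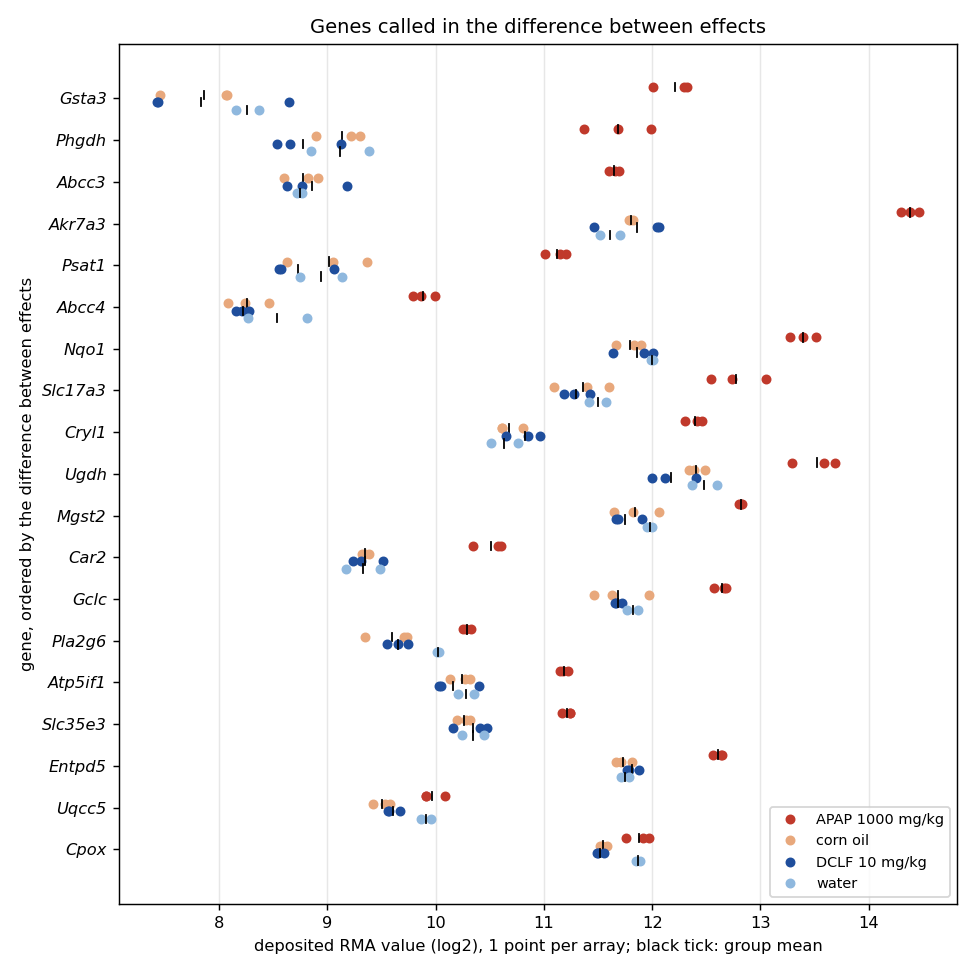
Points are the deposited log2 RMA values of the 19 called genes, 1 for each array, coloured by group with black ticks at group means, and genes are ordered by the difference. APAP points stand apart on the right in every row but Uqcc5, where water replicate 2 reaches them, and Cpox, where both water arrays do.

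The remaining called genes had smaller differences. Car2, a cytosolic carbonic anhydrase, had a difference of 1.13 ± 0.16 (adjusted p = 0.0304), and its second probe set gave 0.88 without a call. Atp5if1, the inhibitor of the mitochondrial ATP synthase, had 1.06 ± 0.15 (adjusted p = 0.0320), but of its 2 further probe sets 1 gave 0.46 and the other, 1371230_x_at, -0.33. Of 9 further probe sets of 6 called genes, 8 had a difference above 0 and 0 were called by limma. Creg1, a secreted glycoprotein, was called through a second probe set at 0.94 (adjusted p = 0.0304), whereas the probe set with the highest mean gave 0.79 (adjusted p = 0.0505). The 2 called probe sets without a single gene name, 1397300_at and 1372261_at, had differences of 2.34 and 1.43.

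In 3 called genes the APAP effect made up less than 75% of the difference. Its share was 48.9% for Cpox, 59.8% for Uqcc5 and 65.1% for Pla2g6. Cpox, coproporphyrinogen oxidase of haem synthesis, had APAP values of 11.97, 11.76 and 11.92 against corn oil values of 11.58, 11.54 and 11.51. DCLF gave 11.56, 11.49 and 11.50, below both water values of 11.86 and 11.88. APAP and water thus overlapped, as did corn oil and DCLF, and the difference of 0.69 ± 0.10 (adjusted p = 0.0497) came from 0.34 for APAP and -0.35 for DCLF. Uqcc5, an assembly factor of respiratory complex III, had the same order, with 0.46 for APAP, -0.31 for DCLF and a difference of 0.77 ± 0.11 (adjusted p = 0.0409). Pla2g6, a calcium-independent phospholipase A2 that releases fatty acids from membranes, had 0.69, -0.37 and 1.06 ± 0.15 (adjusted p = 0.0304). Corn oil minus water was -0.32 for Cpox, -0.40 for Uqcc5 and -0.43 for Pla2g6, similar in size to the DCLF effects. The call for Uqcc5 was lost without any 1 of the 11 arrays, that for Cpox without 10 of them and that for Pla2g6 without 7.

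Genes that were lower with APAP gave large negative differences, none of them called. Hbb, beta globin, had APAP values of 10.11, 9.89 and 10.88, against 12.39 to 13.43 with corn oil, 12.56 to 13.57 with DCLF and 13.22 and 13.66 with water. The APAP arrays were below all others, as in 2.07% of all probe sets, and the difference was -2.44 (95% interval -3.54 to -1.34, adjusted p = 0.105). Alas2, the erythroid enzyme of haem synthesis, had a difference of -1.42 (adjusted p = 0.240), with APAP at 7.97 to 8.58 and the other arrays at 9.55 to 10.71. Averaged over the 13 erythroid markers measured of 21 listed, the level was 8.68 to 8.83 in APAP arrays, 8.97 to 9.22 with corn oil, 9.06 to 9.26 with DCLF and 9.12 to 9.27 with water. In such bulk tissue fewer cells of a type and less RNA per cell cannot be told apart, and the part of blood content in these 2 values was not tested. Of the 13 erythroid markers, Hbb and Alas2 included, 7 had a difference above 0. The list median was 0.04, with -0.01 to 0.01 under quantile normalization or median centring. Mean levels of the 13 ran from 6.98 to 12.39, and whether low signal hid a change in some was not tested.

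Cyp17a1, the steroid 17-hydroxylase, fell with APAP by 2.49 and had a DCLF effect of -0.84 that was not called, so its difference was -1.64 (interval -2.61 to -0.68, adjusted p = 0.192). Lox, the collagen cross-linking oxidase, had a difference of -2.63 (adjusted p = 0.178), and its water values of 10.78 and 8.53 were farther apart than any other pair within its groups. The difference of Lox was -3.76 and called without water replicate 1, and -1.51 and not called without water replicate 2. Cav2, a caveolar protein of endothelium and other cells, had a difference of -1.25 (adjusted p = 0.185). Apoa1, the main protein of high-density lipoprotein and chosen here after its values were seen, had one of -1.52 (adjusted p = 0.0927), with water replicate 2 at 13.65 and replicate 1 at 14.44.

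Cytochrome P450 genes that make reactive products from the 2 drugs did not pass the test in the difference. Cyp2e1, which oxidises APAP, lay between 15.66 and 15.77 in all 11 arrays, at the top of the scale, and its difference was 0.03 (interval -0.17 to 0.22). Cyp1a2, another APAP oxidase, was called lower for APAP, with 12.31, 12.09 and 12.23 against 13.20, 13.04 and 12.67 with corn oil, and its difference was -0.75 (adjusted p = 0.184). Cyp3a2 had APAP values of 12.97, 13.02 and 12.66 and corn oil values of 14.62, 14.48 and 12.86. Corn oil replicate 3 sat with the APAP arrays, and the difference of -1.09 (adjusted p = 0.426) was called, at -1.66, when that array was left out.

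Cyp2c11, a male-predominant P450, had the same array low, at 13.63 against 14.33 and 14.35, and a difference of -0.59 (interval -1.17 to -0.01). Cyp2c6v1 and Cyp2c7, relatives of the human DCLF hydroxylase, had differences of -0.01 (interval -0.26 to 0.24) and 0.14 (interval -0.07 to 0.35). Cyp3a23-3a1 had one of -0.09 (interval -0.57 to 0.40). Cyp2c7, at 15.49 to 15.72, lay like Cyp2e1 near the highest value of the data, 15.99. Whether such bright probe sets were saturated was not tested, so their intervals cover only the spread between arrays. Of 35 genes of P450 families 1 to 3 measured, 0 were called in the difference by limma, against 0.134% of all genes. Their median was -0.01.

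The cyclooxygenase genes and the sulfation genes Sult1a1 and Papss2 did not pass the test in the difference either. Other drug handling genes, such as Ugdh, Abcc3, Abcc4, Nqo1 and Gclc, were called, as given above. Ptgs1, the constitutive cyclooxygenase, had a difference of -0.02 (interval -0.68 to 0.64), and Ptgs2, the inducible one, stood at 4.86 to 5.02 in all arrays, the bottom of the scale. Sult1a1, the phenol sulfotransferase, had -0.03 (interval -0.45 to 0.38) and Papss2, which makes its sulfate donor, 0.28 (interval -0.06 to 0.62). Lcn2, an acute phase lipocalin, had -0.45 (interval -1.50 to 0.60), its APAP values of 8.48, 7.65 and 9.42 reaching both sides of all other arrays. Of 29 genes of prostaglandin and leukotriene synthesis, Pla2g6 was the only one called, against 0.134% of all genes and beside a list median of 0.03.

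**Figure D4:**
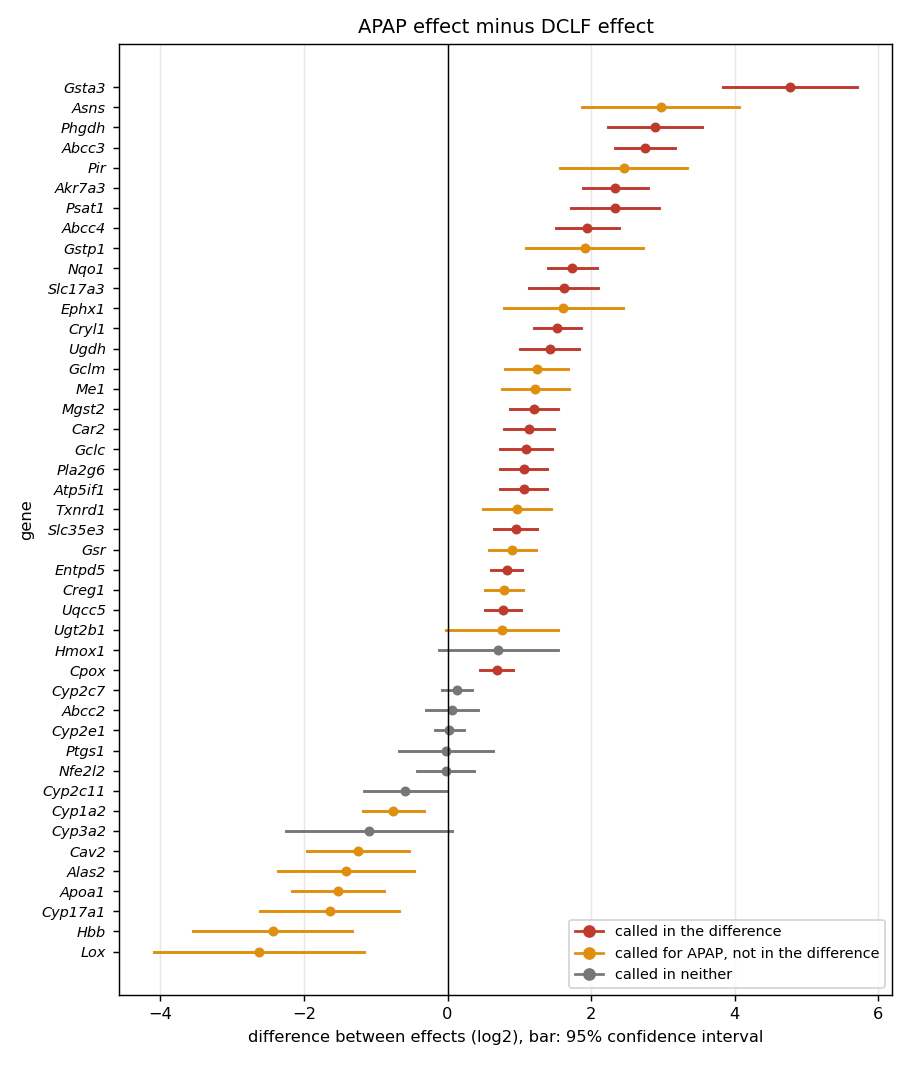
Points are the difference between the APAP and DCLF effects (log2) with 95% confidence intervals as bars, red for genes called in the difference, orange for genes called for APAP only and grey for genes called in neither. The orange interval of Hbb, -3.54 to -1.34, excludes 0 and is wider than most red ones, whereas that of Ugt2b1, -0.03 to 1.54, holds 0.

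Of the gene lists, that of NRF2 targets held the largest number of called genes. The lists differ in length and were chosen with earlier results of these data known, so nothing is read from that rank. Of 31 NRF2 targets measured, 4 were called higher and none lower, and 26 lay above 0, with a median difference of 0.49. Among the 4, Abcc3 and Abcc4 also counted in the transporter list, and Abcc3 in the list of female-predominant genes. Over all 14217 genes 19 were called (0.134%), the median was 0.05 and 8378 lay above 0 (58.9%). The NRF2 median came from 0.50 for APAP and -0.04 for DCLF. With 1 array left out it stayed between 0.40 and 0.54, and with median centring or quantile normalization between 0.38 and 0.46. Of 18 genes of NADPH supply, which feeds glutathione and quinone reduction, 0 were called and 16 lay above 0, with a median of 0.31. Me1, malic enzyme and named after its values were seen, had the largest difference of these, 1.22 (adjusted p = 0.0752).

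Several lists without any called gene lay mostly to 1 side of 0, where 58.9% of all genes lay above 0. All 31 proteasome subunits had a difference above 0, with a median of 0.26, and here the DCLF median of -0.23 was farther from 0 than the APAP median of 0.05. Corn oil minus water had a median of -0.09 in this list and -0.03 over all genes. Psma1 had the largest, 0.66 (adjusted p = 0.170), from 0.28 for APAP and -0.38 for DCLF. Its corn oil minus water was -0.26, and both water values, 11.91 and 11.97, stood above every corn oil and DCLF array. The part of the vehicles in these values was not tested. The proteasome median stayed between 0.16 and 0.32 when arrays were left out, lowest without corn oil replicate 2 and highest without water replicate 1. With median centring or quantile normalization it was 0.17 to 0.23, and 27 to 30 of the 31 lay above 0. Of 27 cytoplasmic ribosomal proteins 26 lay above 0, with a median of 0.22, and of 21 endoplasmic reticulum chaperones 20 did, with a median of 0.25. With median centring or quantile normalization 26 ribosomal proteins and 17 to 19 chaperones lay above 0. Rpl12 had the largest ribosomal value, 0.55 (adjusted p = 0.148), and Pdia4 the largest chaperone value, 0.54 (adjusted p = 0.339). For chaperones the APAP median was 0.26 and the DCLF median -0.03.

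On the lower side, 2 of 14 male-predominant liver genes were above 0, with a median of -0.30. That median was -0.50 without corn oil replicate 3, the array with low Cyp3a2 and Cyp2c11. Of 28 complement and coagulation genes 7 were above 0, with a median of -0.14, and of 23 cholesterol synthesis genes 8, with a median of -0.15. The 18 sinusoidal endothelium markers had a median of -0.16 with 2 above 0, but without water replicate 1 the median was 0.11 with 14 above 0, so 1 array set their direction. Quantile normalization moved the median over all genes from 0.05 to -0.01 and median centring moved it to 0.02.

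**Figure D5:**
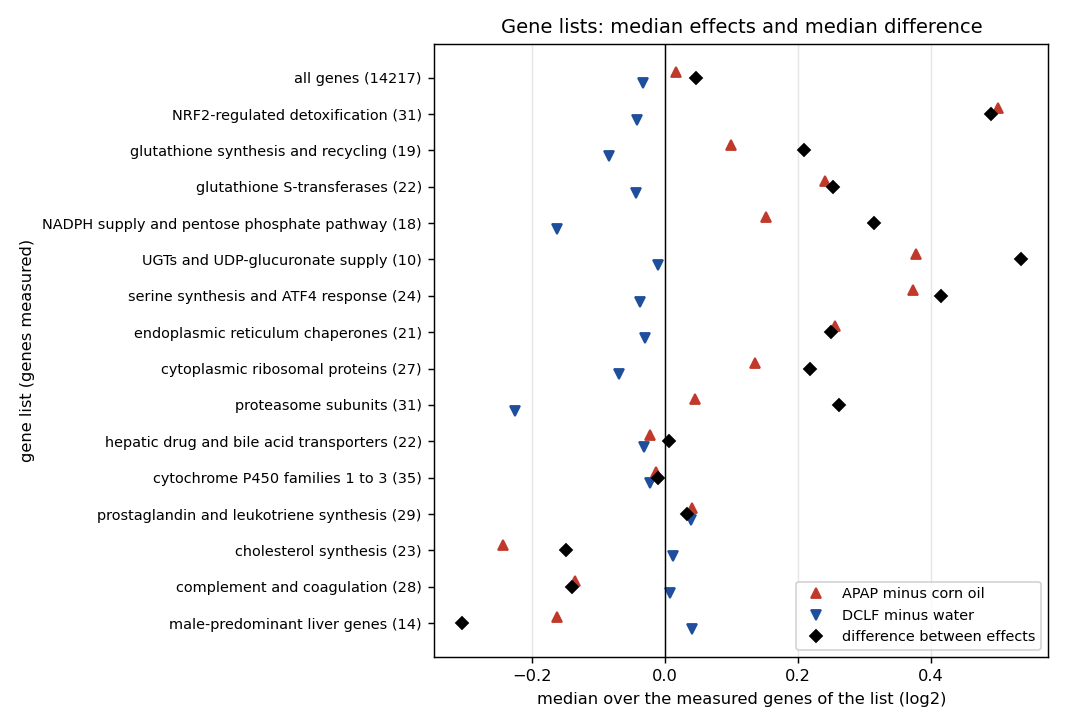
For each gene list, with the number of genes measured in brackets, triangles give the median log2 effect of APAP (red, upward) and DCLF (blue, downward) against their vehicles and black diamonds the median difference. The NRF2 diamond at 0.49 lies by the APAP triangle, and the proteasome diamond at 0.26 lies opposite a DCLF triangle at -0.23.

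Set directly against each other, without their vehicles, APAP and DCLF livers differed in 153 probe sets (0.493%), 114 higher and 39 lower with APAP. This count was 99 without APAP replicate 1 and 92 without DCLF replicate 3, and it holds the corn oil and water difference as well as that of the drugs. The mean of the 2 effects, which can pass through 1 large effect alone, was called in 24 probe sets (0.0773%), 12 higher and 12 lower. Most of its largest genes, such as Gsta3, Abcc3, Akr7a3 and Ephx1, had a far larger APAP effect than DCLF effect. Cyp17a1 had a mean effect of -1.66 (adjusted p = 0.0192) with both effects below 0, and Cav2 one of -1.12 (adjusted p = 0.0259), again with both below 0. Neither DCLF effect was called by limma, at -0.84 (adjusted p = 0.339) for Cyp17a1 and -0.49 (adjusted p = 0.434) for Cav2. A DCLF effect below 0 was seen in 55.4% of all probe sets and in 84.1% of those called lower for APAP. A shared effect is therefore not read from these 2 genes. The count of 24 was 4 without water replicate 1, 11 without APAP replicate 2, 12 without DCLF replicate 1, 13 without water replicate 2, 14 without DCLF replicate 3 and 38 without corn oil replicate 3.

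The difference was measured less precisely than either effect. The median standard error over all probe sets was 0.14 for the difference, 0.09 for the APAP effect and 0.10 for the DCLF effect, since the difference adds the error of all 4 groups. Gstp1, a pi class glutathione S-transferase, had a difference of 1.91 that was not called (adjusted p = 0.0927), with APAP values of 13.47, 12.42 and 12.65. Ephx1, microsomal epoxide hydrolase, had one of 1.61 (adjusted p = 0.150), its APAP values being 15.56, 15.49 and 14.36. In both genes every APAP array was above every other array, and 1 APAP array stood off from the other 2. Without APAP replicate 3 the Ephx1 difference was larger and was called.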

How the data were processed

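RNA from 23 rat livers had been hybridised singly to Affymetrix whole-genome rat arrays, and the deposited values were log2 units that the authors made with RMA in Array Studio. No further scaling was applied. The 57 Affymetrix control probe sets were left out. The authors annotated the probes with RefSeq and Ensembl; here probe sets were named through GEO's platform annotation and RefSeq gene IDs: of 31042 tested, 20826 had 1 gene (20758 matched), 436 several and 9780 none. The probe set with the highest mean stood for a gene.

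A linear model of the 4 groups (11 arrays, 7 residual degrees of freedom) was fitted with limma 3.58.1 in R 4.3.3, with empirical Bayes moderation of the variances. Two-sided p-values were adjusted by Benjamini-Hochberg over all 31042 probe sets, and errors are standard errors from this fit. The study's methods give a two-sided test of 2 groups, which cannot test a difference between effects and was not run; the alternative without moderation used the 4-group variance. The number of arrays limits the precision.

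Named genes were the called genes with the largest differences, called members of each list, the largest APAP-called genes not called in the difference, the largest mean effects and a fixed set of drug handling genes. Me1, Apoa1, Creg1, Psma1, Pdia4 and Rpl12 were added after their values were seen. The question, gene lists and rules were chosen with earlier results of these data known. Replicate numbers follow sample order. The fit was tested on simulated data. Ugt1a1 and Ugt1a6 had no probe set of their own here.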

Additional observations from a re-analysis of the deposited data

Results flagged for a closer look

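In 5 called genes all 3 APAP arrays were above all 3 corn oil arrays while all 3 DCLF arrays were below both water arrays. The 2 effects had opposite signs and their difference passed the limma test. Since these arrays also chose the genes, nothing is read from the count of 5. Corn oil minus water was also below 0 in each, at -0.13 for Gclc and Mgst2, -0.32 for Cpox, -0.43 for Pla2g6 and -0.40 for Uqcc5. The part of the vehicles in this order was not tested. The difference was 1.0918 for Gclc, 1.2022 for Mgst2, 0.6881 for Cpox, 1.0621 for Pla2g6 and 0.7711 for Uqcc5 on the log2 scale. The DCLF effect alone was called in none of the 5 by limma, with adjusted p of 0.689 for Gclc, 0.442 for Mgst2, 0.215 for Cpox, 0.261 for Pla2g6 and 0.244 for Uqcc5, and with 2 water arrays the spread of that group is known only loosely.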

How the results depend on the processing

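No paired analysis was possible because the 4 groups were different rats and replicate numbers only follow sample order. No difference of a named gene reversed its called direction, and the 19 called genes were lost together only in the test without moderation at the adjusted p. Calls were also lost for Cpox, Gclc and Slc35e3 under quantile normalization, for Cpox and Gclc under median centring, for Gclc under array weights, for Atp5if1, Gclc and Pla2g6 with 1 value per gene, and for Uqcc5 with all 23 arrays. The difference had 22 called probe sets, and 58 (50 higher, 8 lower) when all 23 arrays gave the variance, 35 among probe sets above the median level, 36 with a variance trend, and without moderation 0 at the adjusted p and 245 at an unadjusted p under 0.01. Under array weights, quantile normalization, median centring, robust moderation or 1 value per gene it stayed between 22 and 31. Without moderation at the adjusted p, APAP against corn oil had 20, APAP against DCLF 30 and the mean effect 3. At the unadjusted p, DCLF against water had 48, corn oil against water 10 and the mean effect 48. APAP against corn oil had 65 with only those 2 groups fitted, APAP against DCLF 95 with 1 value per gene, DCLF against water 5 with all 23 arrays, and the mean effect 37 with array weights.

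Leaving out 1 array gave 8 to 27 for the difference, 72 to 117 for APAP against corn oil, 0 to 1 for DCLF against water, 0 to 1 for corn oil against water, 92 to 185 for APAP against DCLF and 4 to 38 for the mean effect. The single DCLF call appeared without APAP replicate 1, APAP replicate 3 or DCLF replicate 2, and the corn oil call without DCLF replicate 2. The cause of these shifts was not tested. With a group reduced to 1 water array its spread was taken from the other groups. Dim probe sets such as those of Ptgs2 near 4.9 carry little signal over background, so a difference there was not detectable, and values near the highest of the data, such as those of Cyp2c7 and Cyp2e1, may be limited by saturation, which was not tested.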
